A study of Mus musculus with 8 samples.

Results

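The genes described here are 10 genes of serine synthesis, mitochondrial one-carbon metabolism and the Atf4 stress response: Phgdh, Psat1, Psph, Shmt2, Mthfd2, Atf4, Asns, Trib3, Chac1 and Ddit3. They were taken as all array probes annotated to only 1 of these symbols, which gave 23 of 45037 probes tested, for 10 of 18193 genes measured. Of these probes, 21 had a normalised signal of at least 20 in some sample, and the other 2, of Atf4 and Ddit3, stayed below it in all 8 samples. The samples were mammary tumours of female MMTV-PyMT mice (FVB/N-Tg(MMTV-PyVT)634Mul/J), in which a mouse mammary tumour virus promoter drives polyoma middle T antigen in the mammary epithelium, so both groups carry the transgene. In 4 samples the mice were vehicle-treated, with no protocol stated for them, and in 4 they were gavaged with SKI-606 at 100 mg/kg, with 0.4% Tween 80 and 0.5% methocellulose as its carrier. SKI-606, also called bosutinib, blocks the kinases Src and Abl. No age of the animals or length of treatment is stated. The series title names tumour differentiation as the question.

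Serine is made from a glycolytic intermediate in a chain of reactions: Phgdh oxidises 3-phosphoglycerate, Psat1 transaminates the product, and Psph removes the phosphate. Shmt2 then splits serine into glycine and a one-carbon unit in the mitochondrion, and Mthfd2 oxidises that unit on its way to formate, which feeds purine and thymidylate synthesis. Atf4 is a transcription factor whose translation rises when eIF2 is phosphorylated under amino acid shortage or stress of the endoplasmic reticulum, and all the other genes listed here are known Atf4 targets. Ddit3 (CHOP), Trib3 and Chac1 belong to the stress branch of the response, and Asns makes asparagine.

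Each sample was read on 1 array, and precision is limited by having 4 arrays in a group. The medians of the array signals were 15, 17, 23 and 18 in vehicle and 15, 15, 16 and 15 in SKI-606 samples, in the order of their numbers. Scaling arrays by their medians, used below as an alternative, therefore acts unequally on the groups. The luminal epithelial marker list was bright in every sample, with 11 of 12 genes measured and a summed signal of 30478 to 34946 in vehicle and 29102 to 35185 in SKI-606 samples. Below, a level is a quantile normalised signal on the linear scale, and a difference is the log2 fold change of SKI-606 over vehicle, computed on signal + 16 and given ± SE (n = 4 per group). A gene passed the test if its limma p, adjusted for all probes of the array, was under 0.05. Levels of different probes are not comparable as amounts of RNA, so each difference is taken within a probe. Levels across probes were used to pick representative probes and the brightest gene of a list. They were also summed or averaged over lists, and in the sums bright probes weigh most.

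The signals of the 3 serine synthesis genes were lower in the SKI-606 tumours than in the vehicle tumours, by 1.70-fold to 2.27-fold at their representative probes (the probe of highest mean for a gene), but no gene passed the test. All 7 probes of Phgdh, Psat1 and Psph lay below 0. Asns and Trib3 lay lower by 1.33-fold and 1.42-fold, Shmt2 by 1.26-fold, and Atf4 and Ddit3 were close to 0. Chac1 lay on the other side, at 1.48-fold higher, through 2 of the 4 SKI-606 samples. Over the array, 0 probes (0.0%) had an adjusted p under 0.05, and 0 of the 23 did; the smallest adjusted p was 0.519 over all probes and 0.528 among the 23. At an unadjusted p under 0.05, 9 of the 23 probes were lower, where 3.79% of all probes were, and 1 was higher, where 4.59% were. Probes of 1 gene share their target, so these 9 stand for 5 genes: 4 probes of Phgdh, 2 of Psat1 and 1 each of Psph, Asns and Trib3. By representative probe 4 of the 10 genes were lower at that level, beside 4.31% of all genes, and 0 were higher, beside 6.07%. The median difference over the 10 genes was -0.38, and over all genes -0.02, and 7 of the 10 lay below 0, as did 52.9% of all genes. The 10 genes and the lists below were chosen with earlier results of these data known. Shares and medians set beside those of all genes or probes are thus descriptions and no test of the group of genes. In place of 9, the count was 5 when vehicle sample 3 was left out and 5 when SKI-606 sample 4 was. It was 2 when SKI-606 samples 1 and 4 both were left out, and 0 when vehicle sample 3 was left out with that pair. Of all 45037 probes, those at an unadjusted p under 0.05 in either direction also fell, from 3771 to 2801, 2360, 1776 and 1816 in the same order. The member count was 4 after scaling arrays by their medians in place of quantile normalisation, where 4147 of all probes were at that level. That scaling also took the representative probes of Asns, Trib3 and Shmt2 to -0.16, -0.24 and -0.10, and leaving out SKI-606 sample 4 alone took Asns to -0.25 and Shmt2 to -0.17.

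**Figure D1:**
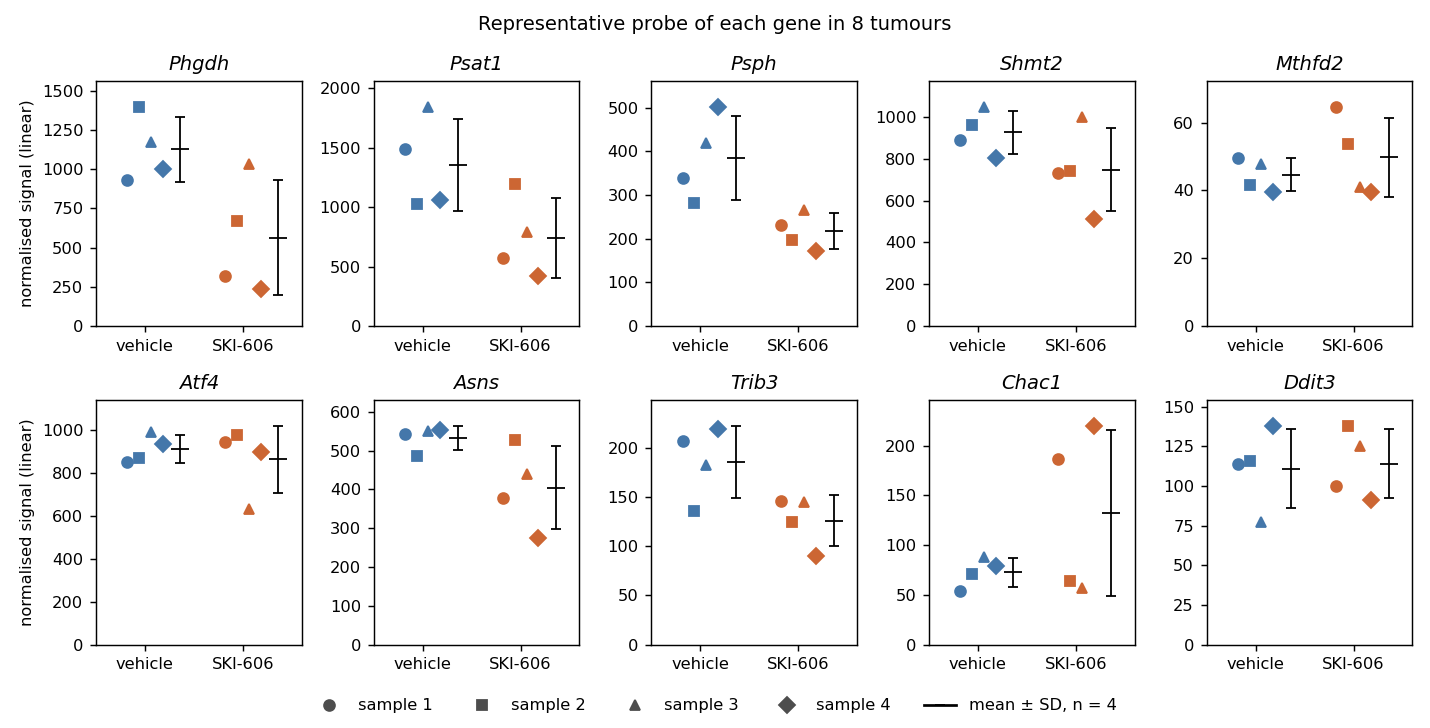
Normalised signal (linear scale from 0) of the representative probe of each of the 10 genes in the 4 vehicle (blue) and 4 SKI-606 (orange) tumours, with the marker shape for the sample number and black bars for mean ± SD (n = 4). Psph separates the groups, Phgdh and Psat1 are lowest in SKI-606 samples 1 and 4, and Chac1 is highest in those same 2 samples.

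Phgdh, the first enzyme of the route, had levels of 932, 1394, 1171 and 1003 in the vehicle tumours, in the order of their numbers, at its representative probe. In the SKI-606 tumours, in the same order as in all such lists here, the levels were 318, 671, 1032 and 236. SKI-606 samples 1, 2 and 4 lay below every vehicle sample, and SKI-606 sample 3 lay within the vehicle range. The means were 1125 ± 206 and 564 ± 365 (SD, n = 4 each). The difference was -1.19 ± 0.40, with a 95% confidence interval from -2.09 to -0.28 and limma adjusted p = 0.558. The other 3 Phgdh probes gave -1.20 ± 0.48, -0.84 ± 0.33 and -0.93 ± 0.25. In the last of these the vehicle levels were 284, 389, 316 and 290, and the SKI-606 levels 120, 195, 252 and 108. There the groups did not overlap. In 2 of the 23 probes, this one and that of Psph, all SKI-606 samples lay below all vehicle samples, where 1.86% of all probes showed this. The 4 probes followed each other closely over the 8 samples, with Pearson r between 0.93 and 0.98. All 4 carry the suffix that Affymetrix gives to probe sets that may also bind other transcripts. A further 2 probes are annotated to Phgdh together with Gm8096 or Gm6756 and so are no members. They stood at -0.88 ± 0.43 and -0.83 ± 0.30.

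Psat1, the transaminase, had levels of 1488, 1023, 1840 and 1063 in vehicle and of 574, 1196, 788 and 419 in SKI-606 tumours. SKI-606 sample 2 lay inside the vehicle range and the other 3 lay below it. The means were 1353 ± 386 and 744 ± 337 (SD, n = 4 each), and the difference was -0.91 ± 0.32 (95% interval -1.62 to -0.20, limma adjusted p = 0.558). The second probe stood at -0.86 ± 0.34, with a high level of 1383 in vehicle sample 3 beside 641 to 706 in the other vehicle samples.

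Psph, the phosphatase that completes the route, had 1 probe. Its levels were 338, 282, 419 and 501 in vehicle and 232, 198, 266 and 172 in SKI-606 tumours. Every SKI-606 sample lay below every vehicle sample, although the gap between 266 and 282 is small. The means were 385 ± 95.8 and 217 ± 41.0 (SD, n = 4 each). The difference was -0.77 ± 0.20 (95% interval -1.23 to -0.31), the steadiest of the 10 genes relative to its error, with limma adjusted p = 0.528. It was -0.68 without SKI-606 samples 1 and 4, when those of the representative probes of Phgdh and Psat1 were -0.41 and -0.44. Without vehicle sample 3 as well, Psph stood at -0.63, Phgdh at -0.38 and Psat1 at -0.27, and the second probes of Phgdh and Psat1 at -0.19 and -0.12. SKI-606 sample 4 was the lowest of the 8 samples in 7 of the 7 probes of these 3 genes. It was also the lowest in 13 of the 21 member probes that are not dim. SKI-606 samples 1 and 4 were the lowest pair in 6 of the 7 serine probes. Probes of 1 gene share their target, and the shares of all probes with these orders were not counted.

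**Figure D2:**
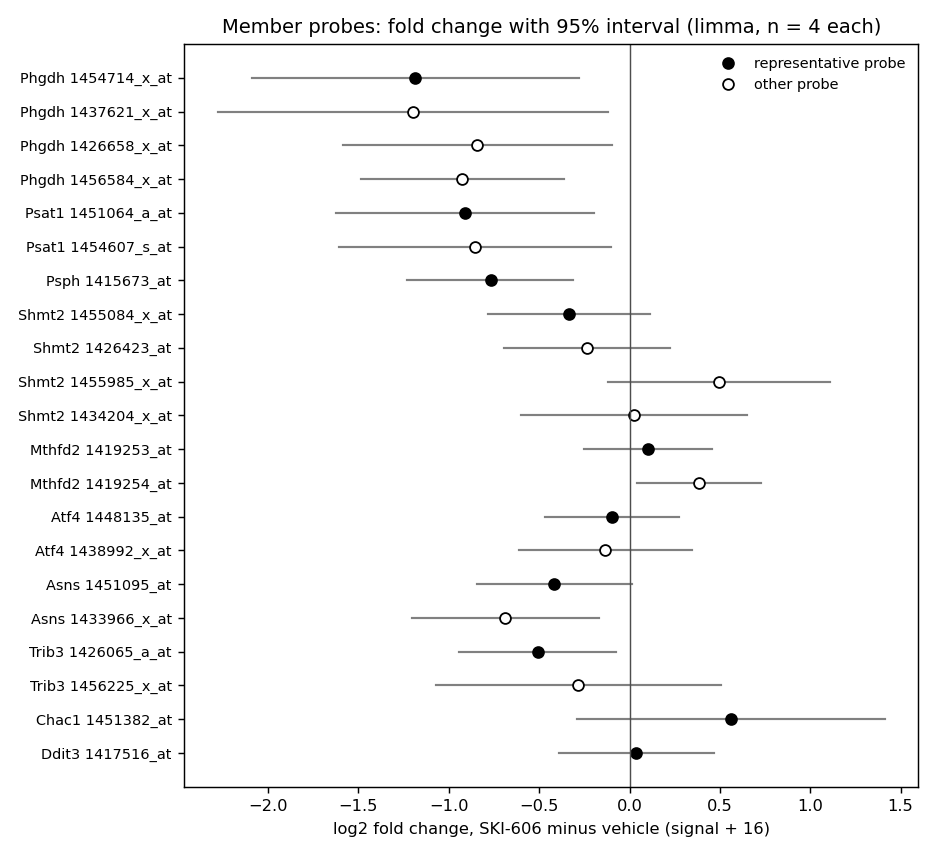
Log2 fold change (horizontal axis, SKI-606 minus vehicle, signal + 16) of the 21 probes that are not dim, with 95% confidence intervals from limma (n = 4 each); filled points are representative probes and open points are other probes of the gene. All 7 probes of Phgdh, Psat1 and Psph lie between -1.20 and -0.77, whereas the points of Atf4 and of 1 lower Shmt2 probe lie within 0.24 of 0 and turn positive when arrays are scaled by their medians.

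In the mitochondrial one-carbon steps the differences were smaller. Shmt2 had levels of 891, 962, 1046 and 803 in vehicle and of 733, 741, 1000 and 514 in SKI-606 samples at its representative probe. SKI-606 sample 3 lay inside the vehicle range and the other 3 below it. The difference was -0.34 ± 0.20 (95% interval -0.78 to 0.11, limma adjusted p = 0.678). Its second probe stood at -0.24 ± 0.20, and turned to 0.032 after median scaling. These first 2 probes followed each other at r = 0.92 over the 8 samples. The third and the fourth Shmt2 probe stood at 0.49 ± 0.27 and 0.03 ± 0.28, and correlated with the representative probe at only 0.29 and 0.50. Both were much dimmer, with levels of 34.2 to 101 and 25.6 to 76.5. The 4 probes thus do not give 1 answer. All but the second carry the same suffix as the Phgdh probes, for possible binding of other transcripts.

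Mthfd2 had levels of 49.6, 41.5, 47.9 and 39.5 in vehicle and of 64.5, 53.6, 41.1 and 39.5 in SKI-606 samples. The groups overlapped, and the difference was 0.10 ± 0.16 (95% interval -0.25 to 0.46, limma adjusted p = 0.891). Its second probe had levels of 29.5, 34.8, 25.0 and 36.4 in vehicle and of 55.1, 51.8, 37.1 and 40.5 in SKI-606 samples. There all 4 SKI-606 samples lay above the vehicle samples, by as little as 37.1 against 36.4, as in 1.83% of all probes. The difference was 0.39 ± 0.15 with limma adjusted p = 0.573. In SKI-606 sample 1 both Mthfd2 probes had their highest level of the 8 samples, unlike the serine genes.

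Atf4 itself differed little at the level of its RNA, which does not report its translation. The levels were 850, 870, 992 and 935 in vehicle and 945, 974, 632 and 899 in SKI-606 samples. Only SKI-606 sample 3 lay outside the vehicle range. The difference was -0.10 ± 0.16 (95% interval -0.46 to 0.27, limma adjusted p = 0.903), and it turned to 0.13 after median scaling. A second probe stood at -0.13 ± 0.21 and turned to 0.12 in that setting. The third Atf4 probe was dim in every sample, at most 6.62, and gives no fold change.

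The targets Asns, Trib3 and Chac1 are shown with the piece of their promoters that matches the C/EBP-ATF response element, because they were the members with a match and their differences lie on both sides of 0. The motif TGATGNAAN was searched on both strands of the RefSeq promoter windows of assembly GRCm38.p6, which run from 250 bases before to 50 bases after each annotated start. All 10 genes had a window, with 11 windows between them, and 3 of the genes had a match. Of all 32851 windows 3.95% have one, which is a share of windows and not of genes. Each line below reads 5′ to 3′ on the strand of the gene, with the match in capitals.

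Asns, chr6:7693214-7693242, minus strand, match on the strand of the gene, leftmost letter at -23: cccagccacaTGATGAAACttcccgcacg

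Trib3, chr2:152344029-152344057, minus strand, match on the opposite strand, leftmost letter at 13 and so within the transcribed part: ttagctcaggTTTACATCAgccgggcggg

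Chac1, chr2:119351038-119351066, plus strand, match on the opposite strand, leftmost letter at -194: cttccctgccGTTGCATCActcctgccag

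Asns, the asparagine synthetase, had levels of 542, 487, 550 and 554 in vehicle and of 379, 528, 439 and 276 in SKI-606 samples. SKI-606 sample 2 lay within the vehicle range and the other 3 lay below it. The difference was -0.42 ± 0.19 (95% interval -0.84 to 0.01, limma adjusted p = 0.604). Its second probe followed the first with r = 0.97 and stood at -0.69 ± 0.23, with limma adjusted p = 0.558.

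Trib3, a pseudokinase that restrains Atf4 and Akt signalling, had levels of 207, 136, 183 and 219 in vehicle and of 146, 125, 145 and 90.0 in SKI-606 samples. Vehicle sample 2, at 136, lay among the SKI-606 samples. The difference was -0.51 ± 0.20 (95% interval -0.94 to -0.07, limma adjusted p = 0.567). The second Trib3 probe stood at -0.28 ± 0.35, and without SKI-606 samples 1 and 4 and vehicle sample 3 it turned to 0.24.

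Chac1, which degrades glutathione, had levels of 53.5, 71.0, 88.0 and 78.6 in vehicle and of 187, 64.2, 57.2 and 220 in SKI-606 samples. SKI-606 samples 1 and 4 lay above every vehicle sample, and SKI-606 samples 2 and 3 lay within the vehicle range. The difference was 0.56 ± 0.38 (95% interval -0.29 to 1.41, limma adjusted p = 0.717), and it turned to -0.20 without SKI-606 samples 1 and 4. Thus in the same 2 tumours Asns, Phgdh and Psat1 were at their lowest and Chac1 at its highest.

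Ddit3, the stress transcription factor CHOP, had levels of 114, 116, 77.4 and 138 in vehicle and of 100, 138, 125 and 91.4 in SKI-606 samples. The groups overlapped fully, with a difference of 0.04 ± 0.19 (95% interval -0.39 to 0.46, limma adjusted p = 0.973). That value turned to -0.014 with array weights. The second Ddit3 probe was dim, at most 2.38.

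SKI-606 samples 1 and 4 also differed from the rest in their marker lists, and those values stand beside the serine genes here. The mean log2 signal of Phgdh, Psat1 and Psph was 9.64, 9.57, 9.95 and 9.69 in vehicle and 8.51, 9.14, 9.28 and 8.10 in SKI-606 tumours. The mean log2 signal of 17 measured cell cycle genes was 8.73, 8.97, 9.03 and 8.69 in vehicle and 7.56, 8.91, 8.52 and 7.61 in SKI-606 samples. The lowest pair was thus the same in both. In SKI-606 sample 2, however, the cell cycle mean lay within the vehicle range and the serine mean below it. All 17 cell cycle genes lay below 0, beside 52.9% of all genes, with a median of -0.76. Of these, 9 were lower at an unadjusted p under 0.05, beside 4.31% of all genes, and 0 had an adjusted p under 0.05. The squamous list of keratins and other keratinisation genes, 14 of 15 genes measured, had summed signals of 10627 in vehicle sample 3, 17379 in SKI-606 sample 1 and 19829 in SKI-606 sample 4, and of at most 737 in the other samples. Vehicle sample 3 shared that high squamous signal. Within the vehicle group it had the highest Chac1 level, 88.0, the highest Psat1 level and the lowest Ddit3 level.

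**Figure D3:**
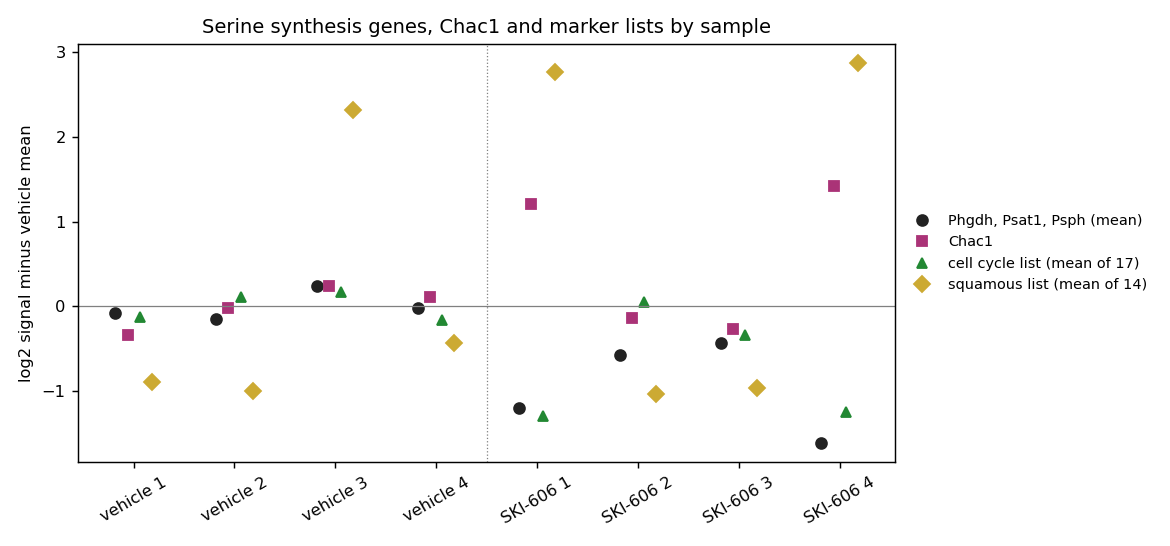
Log2 signal (signal + 16) in each of the 8 tumours minus the mean of the 4 vehicle tumours, for the mean of Phgdh, Psat1 and Psph, for Chac1, and for the mean of 17 cell cycle and 14 squamous genes. SKI-606 samples 1 and 4 have the lowest serine synthesis and cell cycle values and the highest Chac1 and squamous values, while vehicle sample 3 is high in the squamous list and has the highest serine synthesis value.

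Markers of stromal and immune cells had higher signals in SKI-606 samples, most of all in SKI-606 samples 1 and 4. These 2 tumours, in that order, had the summed signals 36110 and 35424 for fibroblasts, 25397 and 31794 for macrophages, 3575 and 3671 for endothelium, and 12252 and 13052 for basal cells, the highest 2 of the 8 samples in each of these 4 lists. The fibroblast list had 12 of 12 genes above 0, where 52.9% of all genes lay below 0. Its summed signals were 14512 to 18407 in vehicle and 19830 to 36110 in SKI-606 samples. The macrophage list had 12 of 12 above 0, with 8038 to 15685 and 16173 to 31794, the endothelial list 11 of 11, with 965 to 2102 and 2061 to 3671, and the T cell list 10 of 10, with 114 to 242 and 313 to 376. None of the measured fibroblast, macrophage, endothelial and T cell markers was dim in all samples, but some T cell markers were near the floor. Mean levels in vehicle and SKI-606 samples were 3.62 and 17.5 for Cd5, 3.06 and 9.44 for Cd4, and 9.47 and 18.9 for Cd3d. The T cell count thus rests in part on dim signals. The luminal epithelial list had 6 of 11 genes below 0, near the 52.9% of all genes, and a median of -0.04. The basal list had 7 of 8 above 0, with 2238 to 5723 and 1859 to 13052. Skeletal muscle, fat and milk genes varied widely within both groups, with summed signals of 130 to 19199, 384 to 5332 and 26164 to 61838 over the 8 samples. The part of these cell types in the serine gene differences was not tested, and fewer cells that express a gene cannot be told apart from less of its RNA per cell in such bulk samples.

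Across the 8 samples the members formed no single block. As descriptions over 8 tumours that share groups and arrays, Phgdh correlated with Psat1 at r = 0.80 (Spearman rho 0.48), with Shmt2 at 0.90 (rho 0.90), with Asns at 0.85 (rho 0.50) and with Chac1 at -0.87 (rho -0.38). Leaving out SKI-606 samples 1 and 4, the farthest from the Phgdh median, gave -0.03 for Psat1, 0.78 for Shmt2, -0.24 for Asns and 0.39 for Chac1, so the relations with Psat1, Asns and Chac1 rest on those 2 tumours. Psph followed Trib3 most closely, at r = 0.92 (rho 0.88), and 0.82 without its own 2 farthest samples. Psat1 and Asns stood at 0.93 (rho 0.86), and at 0.78 without SKI-606 samples 1 and 4. Atf4 RNA correlated with Asns at 0.13 and with Trib3 at 0.06.

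Among 7253 other genes with a mean level of at least 100, the closest profile to that of Phgdh by Pearson r over the 8 samples was that of Rfc5, a subunit of the replication clamp loader (r = 0.99, rho 0.93, and 0.92 without the 2 farthest samples). Rfc5 stood at -0.53 ± 0.23. For Psat1 it was the nucleoporin gene Nup43 (r = 0.98), for Psph the mitochondrial hydratase gene Auh (0.98), for Shmt2 Phlda1 (0.97), for Asns the splicing factor gene Phf5a (0.97) and for Trib3 the phosphatase gene Dusp22 (0.98). Chac1 was most like Il1rn, which encodes the interleukin-1 receptor antagonist and stood at 1.33 ± 0.82 (r = 0.98, rho 0.98, and 0.85 without the 2 farthest). Ddit3 was most like Homer2 (0.96), Mthfd2 like Tacc2 (0.88) and Atf4 like Eloa (0.91, with a rho of 0.50 and 0.38 without its 2 farthest samples). With 8 samples and this many genes, values near 1 are easily reached.

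The wider pathway was read from 7 lists of related genes, by representative probe and beside the same 4.31% (lower) and 6.07% (higher) of all genes at an unadjusted p under 0.05. Counts below 0 stand beside 52.9% of all genes in each list. No list gene had an adjusted p under 0.05. Of 17 measured genes of folate and one-carbon metabolism outside the members, 13 lay below 0, with a median of -0.17, and 3 were lower and 0 higher at that level. Shmt1, the cytosolic counterpart of Shmt2, had levels of 498, 556, 621 and 699 in vehicle and of 259, 412, 546 and 190 in SKI-606 samples, with a difference of -0.82 ± 0.29. SKI-606 samples 1 and 4 were again lowest. Mthfd1, the cytosolic trifunctional enzyme, stood at -0.73 ± 0.28 and Mthfd1l, the mitochondrial formate producer, at -0.47 ± 0.20. Folr1, the brightest of the list and a folate receptor, stood at -0.58 ± 0.34. In the list of glycine cleavage and transsulfuration 7 of 10 genes were measured, with a median of -0.04. Gldc, the decarboxylase of the glycine cleavage system, had levels of 41.8, 4.25, 48.9 and 50.4 in vehicle and of 2.38, 17.5, 5.0 and 4.12 in SKI-606 samples. All SKI-606 levels and that of vehicle sample 2 lay under the limit of 20, and the log2 fold change followed the pseudocount, from -2.06 with 1 to -0.47 with 64, so no single fold is given. Dld and Gcsh stood at -0.50 ± 0.34 and -0.21 ± 0.15, and Gcsh turned to 0.031 after median scaling.

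Of 19 measured cytosolic tRNA synthetase genes, a class of which Atf4 induces some members, 17 lay below 0, beside 52.9% of all genes, with a median of -0.18 and a range from -0.42 to 0.04. Of these, 1 was lower at an unadjusted p under 0.05, Kars at -0.35 ± 0.15, while Hars stood at -0.42 ± 0.21 and Qars, the brightest, at -0.28 ± 0.15. After median scaling Kars, Hars and Qars stood at -0.11, -0.18 and -0.066. Amino acid transporters were mixed, with 7 of 11 below 0, a median of -0.03, and 3 higher at that level. Slc3a2, the heavy chain of the large neutral amino acid carrier, had levels of 1332, 1281, 1218 and 1218 in vehicle and of 1909, 1439, 1712 and 1874 in SKI-606 samples, all above the vehicle levels, with a difference of 0.44 ± 0.14. The serine and alanine transporter gene Slc1a4 stood at 0.58 ± 0.23 and the glutamine transporter gene Slc1a5 at 0.34 ± 0.14. Slc7a5, the light chain partner of Slc3a2, stood at -0.44 ± 0.27.

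Of 19 measured other Atf4 targets, 13 lay below 0, beside 52.9% of all genes, with a median of -0.20. At that level 2 were lower and 2 higher. The higher ones were Jdp2, a repressor of the AP-1 family, at 0.70 ± 0.26, and the stress protein gene Nupr1 at 0.55 ± 0.24. The lower ones were Got1, the cytosolic aspartate transaminase, at -0.41 ± 0.16, and the proline synthesis gene Aldh18a1 at -0.42 ± 0.18. Cebpb, a dimer partner of Atf4 and the brightest of the list, stood at 0.20 ± 0.15. Upstream of Atf4, 11 of 13 genes of the eIF2 kinases, eIF2 and its exchange factor eIF2B lay below 0, with a median of -0.23. The kinase gene Eif2ak3 (PERK) stood at -0.40 ± 0.16 and Eif2b2 at -0.36 ± 0.16, both at an unadjusted p under 0.05 without a block for the replicate number, while Eif2s3x, the brightest, stood at -0.06 ± 0.22 and turned to 0.18 after median scaling. Among 19 chaperones and regulators of the other arms of the unfolded protein response, 9 lay below 0 and 10 above, with a median of 0.001. Edem1 stood at -0.40 ± 0.13, Ern1 (IRE1) at 0.34 ± 0.17 and Xbp1 at -0.10 ± 0.12, which turned to 0.010 after median scaling. Mthfd1l, Slc1a5, Slc7a5, Nupr1 and Aldh18a1 were named after their values were seen.

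**Figure D4:**
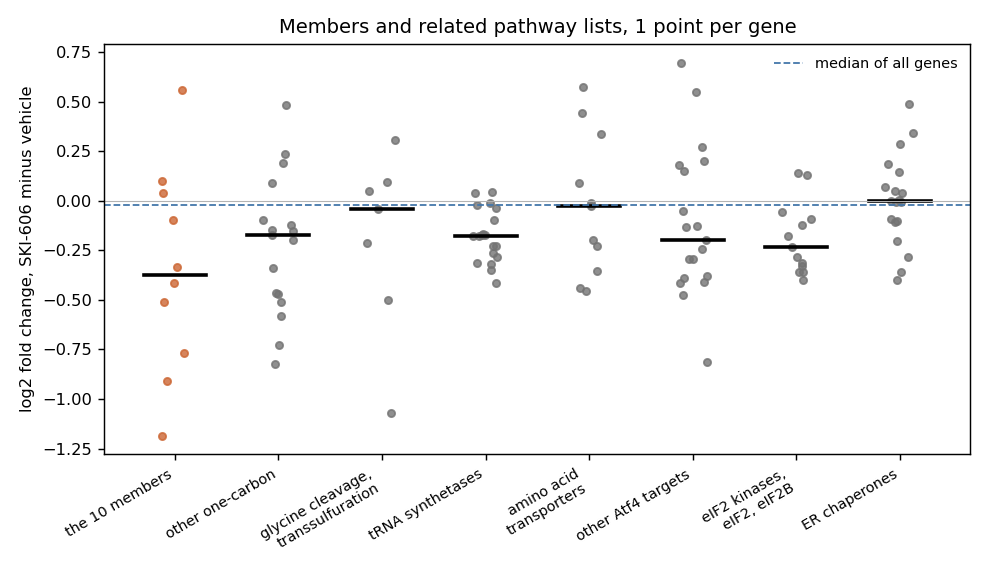
Log2 fold change (vertical axis, SKI-606 minus vehicle) of the representative probe of each measured gene, for the 10 members (orange) and 7 lists of related genes (grey); black bars are list medians and the dashed line is the median of all genes, -0.02. The member median is -0.38 and the list medians run from -0.23 to 0.001, all quantile normalised. After median scaling the member median is -0.13.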

How the data were processed

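Gene expression was measured in 8 tumour samples, grouped by title. Per the labels' protocols, total RNA of each mouse was used, with Affymetrix labelling. The authors deposited linear ratios, made with software not given in the sources used here. From the values, each ratio is a whole-number signal divided by the median of its array and by the median of its probe, with a constant divisor for dim probes. The signals were recovered as the smallest whole numbers giving the ratios, which gave back 45101 of 45101 probes within a relative 0.0001. That return does not check the scale of a probe divided by its own median, since a common multiple of its signals gives the same ratios. Of 5000 simulated probes, 99.8% were recovered exactly. After removal of 64 control probes, signals were quantile normalised, 16 was added and log2 taken. limma 3.58.1 (R 4.3.3) was fitted to all 45037 probes with Benjamini-Hochberg adjustment and tested on simulated data. Since the labels do not list the animals, p-values cover just the spread among these samples, part of which may be technical. Platform annotation named 34945 probes with 1 symbol, 932 with several and left 9160 unnamed here. Named from each pathway list were the 2 genes of smallest unadjusted p and the brightest gene. The members and lists were chosen with earlier results of these data known. Alternatives were the replicate block, pseudocounts of 1 and 64, median scaling, no further normalisation of the recovered signals, and log2 of the ratios. Others were a mean signal of at least 50, array weights, the mean of all probes of a gene, and leaving samples out. The recovered signals were already on a common scale, with trimmed means of 99.816 to 99.836 over the arrays, so no setting used unscaled arrays. Leaving out SKI-606 samples 1 and 4 together, and the count of lower probes at an unadjusted p, were added after seeing the data.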

Additional observations from a re-analysis of the deposited data

Results flagged for a closer look

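In 6 of 82 groups of 4 samples examined, 1 sample lay apart from the other 3 by Dixon's criterion on the log2 scale. Chance gives about 5% of groups. In vehicle, sample 2 was high in 1 Phgdh probe, at 517 beside 418 to 427, and low in Asns, at 487 beside 542 to 554, and in Gldc, at 4.25 beside 41.8 to 50.4. Vehicle sample 3 was high in the second Psat1 probe, at 1383 beside 641 to 706, and in the third Shmt2 probe, at 82.8 beside 34.2 to 39.5. SKI-606 sample 4 was low in the second Trib3 probe, at 46.4 beside 114 to 125.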

How the results depend on the processing

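In every fit tried, 0 probes of the array and 0 of the 23 member probes had an adjusted p under 0.05. The main values are a member median of -0.38 and 9 member probes lower at an unadjusted p under 0.05. With a pseudocount of 1 the count was 5. With median scaling the median was -0.13 and the count 4, and 2 Atf4 probes turned to 0.13 and 0.12, the second Shmt2 probe to 0.032, Gcsh to 0.031, Eif2s3x to 0.18 and Xbp1 to 0.010. On the log2 of the deposited ratios, which moved the median of all probes from -0.021 to 0.096, the member median was -0.13 and the count 0, with 0.13 and 0.13 for Atf4, 0.033 for Shmt2, 0.032 for Gcsh, 0.19 for Eif2s3x and 0.010 for Xbp1. Array weights turned Ddit3 to -0.014. Without the 3 squamous samples the count was 0, the member median -0.15, Phgdh -0.38, Psat1 -0.27, Asns -0.13, the second Trib3 probe 0.24, Chac1 -0.12 and Eif2s3x 0.11. Without SKI-606 samples 1 and 4 the count was 2, Chac1 -0.20 and Eif2s3x 0.16. Of all 45037 probes, 3771 had an unadjusted p under 0.05 in either direction in the main fit. The number was 3091 with a pseudocount of 1, 4147 with median scaling, 3190 on the ratios and 3856 with the replicate block. It was 1816 without the squamous samples, 1776 without SKI-606 samples 1 and 4, and 2360 to 4930 when each sample was left out in turn. The cause of the moves given here was not tested. Leaving out each sample in turn gave counts of 5 to 10, medians of -0.47 to -0.21, and values on both sides of 0 for Atf4 (-0.16 to 0.045 and -0.24 to 0.008), Ddit3 (-0.10 to 0.13), the representative Mthfd2 probe (-0.001 to 0.18), the fourth Shmt2 probe (-0.19 to 0.23) and Eif2s3x (-0.22 to 0.10). All probes of Phgdh, Psat1, Psph and Asns stayed below 0 in every setting, at sizes down to -0.19, -0.12, -0.52 and -0.13. Same-numbered samples did not deviate together (r of 0.009, 0.18, -0.33 and -0.19 over probes with a mean signal of at least 50). These values show no pairing by number, but so few samples cannot exclude one. With the replicate block the count of lower member probes was 9 and that of higher ones 2 in place of 1, with the third Shmt2 probe gained. Kars, Eif2ak3 and Eif2b2 no longer had an unadjusted p under 0.05 with it.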
